A study of Mus musculus with 12 samples.

Results

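The 57 genes described here encode the machinery that copies DNA and the enzymes that make its building blocks. They were chosen by name, with earlier results of these data known, and each was one of the 54532 genes listed for every library. All 57 were also among the 11550 genes that passed the filter on low values, a mean of at least 1 FPKM (reads scaled by gene length and library size) over the 12 libraries. By role they comprised 12 origin licensing genes, 9 genes of origin firing and helicase activation, 9 polymerase and primase genes, 7 genes of the sliding clamp and its loaders, 7 genes of single-strand binding and Okazaki fragment processing, 7 genes of dNTP synthesis and clean-up, and 6 genes of chromatin assembly, methylation maintenance and fork protection.

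The RNA came from primary CD8+ T cells of the mouse, labelled WT or Creb1 KD, in 4 groups of 3 libraries. The cells had been activated and had received a non-targeting siRNA (siNTC) or an siRNA against Creb1 (siCreb1) by the Accell method, a delivery without a transfection reagent. They were then kept for 24 h with DMSO (the siNTC and siCreb1 groups) or with 20 μM TVA (siNTC plus TVA and siCreb1 plus TVA). TVA is trans-vaccenic acid, a fatty acid of ruminant milk and meat, and CREB1 is a transcription factor that acts downstream of cAMP. The siRNA treatment is transient, the control cells had it too, and nothing in the labels or methods says that libraries of a group came from different mice or cultures. The p-values therefore measure the spread between these libraries, which may be technical.

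An activated CD8+ T cell enlarges, enters the cell cycle and divides many times, and every division needs a full copy of the genome. In G1 the origin recognition complex, CDC6 and CDT1 load the MCM2 to MCM7 helicase on DNA, and at the start of S phase the kinase CDC7 and a set of firing factors switch it on. Polymerases then extend both strands on the PCNA clamp, ribonucleotide reductase and its partner enzymes keep up the dNTP supply, and histone chaperones and the DNA methylation machinery restore chromatin behind the fork.

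Creb1 ran from 10.3 to 12.4 FPKM in the 6 siNTC libraries and from 1.17 to 1.81 FPKM in the 6 siCreb1 libraries (exact permutation test over 924 divisions of the libraries, two-sided, p = 0.00216). Between 16660234 and 24602484 reads per library could be recovered from the FPKM values. The group medians were 20236123 in siNTC, 18439724 in siNTC plus TVA, 21995620 in siCreb1 and 23616471 in siCreb1 plus TVA libraries, so depth also moved with the groups. The 8 CD8 T cell markers, among them Cd8a and Cd3e, summed to between 3363 and 3836 FPKM in every library, highest in siNTC. Markers of other cells summed to at most 14.2 FPKM for B cells, 9.10 for myeloid cells, 5.24 for NK cells, 4.66 for CD4 T cells, 0.837 for dendritic cells and 0.424 for erythroid cells, with Hbb-bs at 0 in all libraries. The 5 myeloid markers summed to 8.33 to 9.10 FPKM in siCreb1 plus TVA libraries and to 5.02 to 7.56 FPKM in the other libraries, and their part in the results was not tested.

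In cells with the non-targeting siRNA, TVA went with higher RNA of most of the replication genes. Of the 57 genes, 44 rose, 0 fell and 13 were not called (limma, p under 0.05 after Benjamini-Hochberg adjustment over all tested genes, written BH-adjusted p below), where 7.38% of all tested genes were called in either direction, 4.49% higher and 2.88% lower. Fold changes are differences in log2(FPKM + 1) and are given with their standard error (SE) for the leading genes. The median log2 fold change was 0.38 for the 57 genes and −0.006 for all tested genes. In cells with siCreb1, 0 of the 57 genes passed the same test with TVA, where 0.537% of all tested genes were called, and their median was 0.04. The difference between those TVA effects, the interaction, was called for 27 of the 57 genes, all with the smaller effect in siCreb1 cells, where 2.24% of all tested genes were called, 0.459% with the larger and 1.78% with the smaller value in siCreb1 cells. In bulk RNA a larger share of cells in S phase and more RNA per cell cannot be told apart.

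The level of these genes in siCreb1 cells was itself not that of siNTC cells. Without TVA, 34 of the 57 genes were higher in siCreb1 than in siNTC cells and 0 were lower, where 13.7% of all tested genes were called, 6.52% higher and 7.21% lower. With TVA, 0 were higher and 9 were lower in siCreb1 cells, where 10.1% of all tested genes were called, 4.64% higher and 5.51% lower. The siCreb1 groups thus stood between the siNTC groups for most members. The summed level of the 57 genes was 863 ± 6.26 FPKM in siNTC, 1135 ± 10.0 FPKM in siNTC plus TVA, 1008 ± 6.93 FPKM in siCreb1 and 1036 ± 6.98 FPKM in siCreb1 plus TVA cells (SD, n = 3 each). As a share of recovered reads they took 0.322% to 0.325%, 0.430% to 0.434%, 0.386% to 0.391% and 0.403% to 0.404% in the same order, with no overlap between any groups. The comparisons share libraries: that of TVA in siNTC cells and that of siCreb1 without TVA both use the siNTC libraries.

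**Figure D1:**
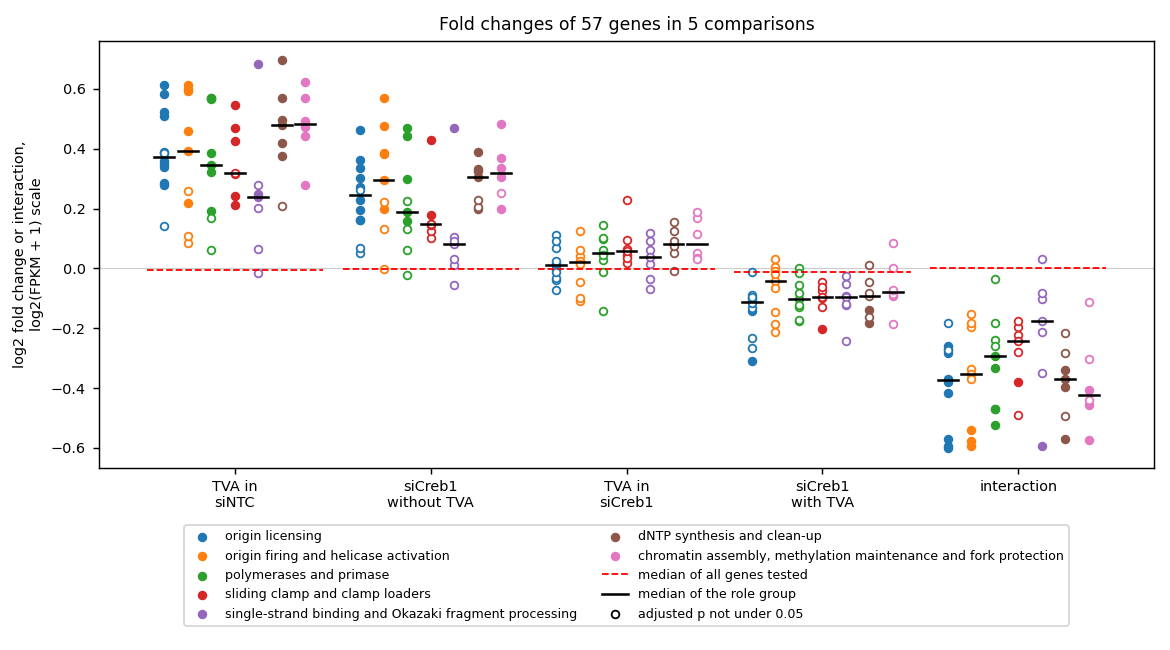
Log2 fold changes on the log2(FPKM + 1) scale of the 57 genes in 4 comparisons and the interaction, a point per gene in the colour of its role group, filled where the adjusted p was under 0.05. Black bars are role group medians and dashed red lines the median of all tested genes. The role groups lie above 0 with TVA in siNTC cells and with siCreb1 without TVA, close to 0 with TVA in siCreb1 cells, slightly below 0 with siCreb1 in the presence of TVA, and furthest below 0 for the interaction.

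Promoters of several members are shown because E2F factors bind a well-known motif at replication genes and CREB1 binds the cAMP response element (CRE). RefSeq promoter windows of GRCm38.p6, from 250 bases before to 50 bases after the start, were found for 46 of the 57 genes. The E2F letters TTTCCCGC, TTTCGCGC, TTTGCCGC or TTTGGCGC, on either strand, were in the windows of 16 of these 46 genes (34.8%), against 2.6% of 27025 genes with a window. The CRE letters TGACGTCA were in 1 of the 46 (2.2%), Mcm5, against 2.0% of all. The shorter run TGACG, a part of the CRE, was in 19 of the 46 (41.3%), against 23.0% of all, and this difference was not tested. Below are the 250 bases before the start, 5′ to 3′ on the gene's strand, with E2F letters and the CRE of Mcm5 in capitals. Mcm5 holds E2F letters and the CRE letters TGACGTCA, Mcm6 has 3 E2F matches, and Cdc6 and Pola1 have 1 E2F match each. Rrm2, with the largest rise of all members on the log2(FPKM + 1) scale, and Rnaseh2a, with the smallest change, have none. In Mcm5 and in Mcm6, E2F matches on opposite strands overlap and read as 1 run of capitals. These genes were picked after the matches and fold changes were known.
Mcm5 (chr8:75109259-75109508, plus strand): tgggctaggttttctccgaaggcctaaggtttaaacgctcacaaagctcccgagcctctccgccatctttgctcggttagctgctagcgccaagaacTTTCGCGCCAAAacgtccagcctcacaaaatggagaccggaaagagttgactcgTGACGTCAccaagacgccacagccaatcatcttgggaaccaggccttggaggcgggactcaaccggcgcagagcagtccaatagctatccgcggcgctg
Mcm6 (chr1:128359706-128359955, minus strand): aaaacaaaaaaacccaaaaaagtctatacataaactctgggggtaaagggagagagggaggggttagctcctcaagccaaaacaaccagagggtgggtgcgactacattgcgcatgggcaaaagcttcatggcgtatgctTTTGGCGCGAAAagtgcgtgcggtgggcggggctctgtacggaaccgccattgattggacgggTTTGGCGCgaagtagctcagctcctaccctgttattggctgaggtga
Cdc6 (chr11:98907901-98908150, plus strand): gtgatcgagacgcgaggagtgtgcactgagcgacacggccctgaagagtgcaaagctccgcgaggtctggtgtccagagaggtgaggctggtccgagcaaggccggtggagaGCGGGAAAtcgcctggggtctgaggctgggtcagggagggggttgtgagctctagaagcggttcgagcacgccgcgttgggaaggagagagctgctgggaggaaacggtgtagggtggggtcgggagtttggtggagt
Pola1 (chrX:93632156-93632405, minus strand): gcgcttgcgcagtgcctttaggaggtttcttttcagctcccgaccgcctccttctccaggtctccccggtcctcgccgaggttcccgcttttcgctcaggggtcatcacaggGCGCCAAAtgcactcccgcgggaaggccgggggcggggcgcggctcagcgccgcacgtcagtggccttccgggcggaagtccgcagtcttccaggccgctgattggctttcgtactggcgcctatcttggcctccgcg
Rrm2 (chr12:24708004-24708253, plus strand): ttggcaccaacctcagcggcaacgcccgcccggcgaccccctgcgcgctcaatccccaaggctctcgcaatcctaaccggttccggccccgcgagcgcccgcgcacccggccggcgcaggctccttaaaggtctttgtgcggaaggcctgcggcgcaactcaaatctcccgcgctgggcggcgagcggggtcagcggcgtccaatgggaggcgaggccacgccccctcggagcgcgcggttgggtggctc
Rnaseh2a (chr8:84966077-84966326, minus strand): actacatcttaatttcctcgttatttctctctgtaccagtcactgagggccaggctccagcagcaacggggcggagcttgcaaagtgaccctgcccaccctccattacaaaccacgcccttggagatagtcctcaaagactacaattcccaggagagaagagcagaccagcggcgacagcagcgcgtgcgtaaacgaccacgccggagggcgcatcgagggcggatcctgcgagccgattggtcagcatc

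The TVA effects of members with and without the E2F letters are set side by side here, and no test compared them. In siNTC cells 13 of the 16 genes with a match rose with TVA, with a median log2 fold change of 0.37 and a range of 0.17 to 0.68. Of the 30 genes with a window and no match 22 rose, with a median of 0.40 and a range of −0.01 to 0.70. The GC box GGGCGG was in 35 of the 46 genes (76.1%, against 38.2% of all genes with a window) and the CCAAT box in 29 (63.0%, against 41.1%). The letters TTTGAA, the CHR of cell cycle promoters, were in 8 (17.4%, against 20.2%). A match is only a run of letters in this window and not evidence of binding.

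The licensing genes rose together with TVA in siNTC cells, 10 of 12, with a median log2 fold change of 0.37. In siCreb1 cells 0 of the 12 were called and the median was 0.01. The interaction was called for 10 of the 12, with a median of −0.37. The 2 genes not called in any comparison were Orc1 and Orc2, subunits of the origin recognition complex, while the third subunit in the list, Orc6, rose with TVA in siNTC cells by 0.52 (limma BH-adjusted p = 0.000798). Orc2 had the smallest log2 fold change of the licensing genes with TVA in siNTC cells, 0.14.

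Cdc6, the ATPase that loads the MCM helicase together with the origin recognition complex, was at 3.18, 3.38 and 3.45 FPKM in siNTC, 5.66, 5.57 and 5.25 FPKM in siNTC plus TVA, 4.98, 4.97 and 4.95 FPKM in siCreb1 and 5.37, 5.33 and 4.41 FPKM in siCreb1 plus TVA libraries. All siNTC libraries were lower than every other library, and the siCreb1 and siCreb1 plus TVA libraries overlapped. The log2 fold change with TVA was 0.58 (SE 0.06, limma BH-adjusted p = 0.000259) in siNTC cells, a ratio of FPKM means of 1.65, and 0.01 in siCreb1 cells.

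Gmnn encodes geminin, the inhibitor of CDT1 that stops origins from being licensed again. Its libraries were at 12.7, 15.8 and 16.8 FPKM in siNTC, 24.1, 23.5 and 23.02 FPKM in siNTC plus TVA, 18.2, 19.9 and 19.4 FPKM in siCreb1 and 18.2, 18.9 and 21.2 FPKM in siCreb1 plus TVA libraries. Highest were the siNTC plus TVA libraries and lowest the siNTC libraries, while the siCreb1 groups overlapped each other in between. Gmnn changed by 0.61 (SE 0.09, limma BH-adjusted p = 0.00154) with TVA in siNTC cells and had an interaction of −0.60 (limma BH-adjusted p = 0.0321).

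Cdt1, the partner of CDC6 in helicase loading, was at 20.8, 23.8 and 20.4 FPKM in siNTC, 26.97, 29.00 and 27.3 FPKM in siNTC plus TVA, 22.99, 22.00 and 23.1 FPKM in siCreb1 and 23.3, 21.4 and 21.9 FPKM in siCreb1 plus TVA libraries. It differed from Cdc6 in that only the siNTC plus TVA libraries stood apart, while the siNTC libraries overlapped both siCreb1 groups. Its log2 fold change was 0.35 (limma BH-adjusted p = 0.00354) with TVA in siNTC cells and 0.07 in siCreb1 against siNTC cells without TVA. In siCreb1 against siNTC cells with TVA it was −0.31 (SE 0.06, limma BH-adjusted p = 0.00785), the largest fall of the 57 genes there.

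The 6 subunits of the MCM2 to MCM7 helicase all rose with TVA in siNTC cells, by 0.28 to 0.51 on the log2 scale. All 6 were also higher in siCreb1 than in siNTC cells without TVA, and all 6 had an interaction. Mcm5 changed most, with 28.1, 24.8 and 24.3 FPKM in siNTC, 37.7, 36.3 and 36.97 FPKM in siNTC plus TVA, 30.5, 32.8 and 32.5 FPKM in siCreb1 and 33.6, 34.5 and 34.1 FPKM in siCreb1 plus TVA libraries. For Mcm5 the 4 groups did not overlap, in the order siNTC, siCreb1, siCreb1 plus TVA and siNTC plus TVA. Mcm3 was at 30.1, 30.2 and 29.7 FPKM in siNTC, 40.7, 39.2 and 39.1 FPKM in siNTC plus TVA, 35.3, 37.4 and 36.7 FPKM in siCreb1 and 36.8, 37.3 and 36.7 FPKM in siCreb1 plus TVA libraries, where the siCreb1 groups overlapped and the siNTC groups lay on either side. Its TVA effect was 0.39 (SE 0.03, limma BH-adjusted p = 1.46e-05) in siNTC cells and 0.02 (95% confidence interval −0.04 to 0.08) in siCreb1 cells. In each group Mcm6 had the highest and Mcm2 the lowest mean FPKM of the 6, while the log2 rise with TVA in siNTC cells was 0.51 (95% confidence interval 0.40 to 0.62) for Mcm5 and 0.28 (95% confidence interval 0.21 to 0.36) for Mcm6.

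Among the firing factors, 6 of 9 rose with TVA in siNTC cells (median 0.39), 0 were called in siCreb1 cells (median 0.02) and 3 had an interaction. Cdc45, which joins MCM and GINS to form the working helicase, was at 4.71, 5.59 and 5.78 FPKM in siNTC, 8.71, 8.71 and 8.72 FPKM in siNTC plus TVA, 7.29, 7.79 and 6.75 FPKM in siCreb1 and 7.45, 6.96 and 7.75 FPKM in siCreb1 plus TVA libraries. The siNTC plus TVA libraries were nearly identical and lay above all others, and the siNTC libraries lay below all others. Its TVA effect was 0.61 (SE 0.07, limma BH-adjusted p = 0.000297) in siNTC and 0.02 in siCreb1 cells, with an interaction of −0.59 (limma BH-adjusted p = 0.00933).

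Ticrr encodes treslin, which helps bring CDC45 to origins. It was at 1.69, 1.48 and 1.71 FPKM in siNTC, 2.85, 3.18 and 2.903 FPKM in siNTC plus TVA, 2.605, 2.83 and 2.495 FPKM in siCreb1 and 2.72, 2.54 and 3.17 FPKM in siCreb1 plus TVA libraries, with the siNTC libraries below all others and the siCreb1 plus TVA libraries overlapping both other groups. The log2 fold change was 0.60 (SE 0.07, limma BH-adjusted p = 0.000698) with TVA in siNTC cells and 0.47 (limma BH-adjusted p = 0.00293) in siCreb1 against siNTC cells without TVA. The log2(FPKM + 1) scale shrinks the change of such a low gene, and the ratio of FPKM means with TVA in siNTC cells was 1.83.

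Cdc7, the kinase that triggers origin firing, was at 5.48, 5.83 and 5.34 FPKM in siNTC, 9.51, 8.85 and 8.29 FPKM in siNTC plus TVA, 8.54, 8.68 and 8.900 FPKM in siCreb1 and 8.94, 8.91 and 8.55 FPKM in siCreb1 plus TVA libraries. Every siNTC library was lower than every other library. Cdc7 rose by 0.59 (limma BH-adjusted p = 4.67e-05) with TVA in siNTC cells and by 0.57 (limma BH-adjusted p = 9.43e-05) with siCreb1 without TVA, nearly the same size from the same 3 siNTC libraries. Its activating subunit Dbf4 changed by 0.11 and 0.13 in these comparisons, and neither passed the test.

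The GINS subunits were not alike. Gins1 rose by 0.39 (limma BH-adjusted p = 0.0256) and Gins3 by 0.22 (limma BH-adjusted p = 0.0344) with TVA in siNTC cells, while Gins2 and Gins4 were not called anywhere. Gins4, the smallest change of the firing factors, was at 26.5, 26.4 and 26.6 FPKM in siNTC, 27.9, 30.7 and 26.02 FPKM in siNTC plus TVA, 28.9, 28.4 and 22.5 FPKM in siCreb1 and 26.7, 22.2 and 25.2 FPKM in siCreb1 plus TVA libraries. Its 4 groups overlapped and its log2 change with TVA in siNTC cells was 0.09 (95% confidence interval −0.12 to 0.29).

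Of the polymerase and primase genes 7 of 9 rose with TVA in siNTC cells (median 0.35), 0 were called in siCreb1 cells (median 0.05) and 5 had an interaction. The catalytic subunits Pola1, Pold1 and Pole and both primase genes were among the 7. The 2 that did not pass, Pola2 and Pole2, encode the second subunits of polymerases alpha and epsilon.

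Prim1, the catalytic primase subunit that lays down RNA primers, was at 7.63, 7.699 and 7.47 FPKM in siNTC, 11.2, 12.99 and 11.2 FPKM in siNTC plus TVA, 11.2, 10.9 and 10.6 FPKM in siCreb1 and 11.8, 11.5 and 12.02 FPKM in siCreb1 plus TVA libraries. The siNTC libraries were below all others, and the siNTC plus TVA libraries overlapped both siCreb1 groups. It changed by 0.57 (SE 0.05, limma BH-adjusted p = 7.55e-05) with TVA in siNTC cells and by 0.47 (limma BH-adjusted p = 0.000359) in siCreb1 against siNTC cells without TVA.

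Pole, the catalytic subunit of the leading strand polymerase epsilon, was at 4.41, 3.83 and 4.18 FPKM in siNTC, 6.497, 6.28 and 7.11 FPKM in siNTC plus TVA, 6.04, 6.08 and 5.82 FPKM in siCreb1 and 6.15, 6.29 and 6.18 FPKM in siCreb1 plus TVA libraries. The siNTC libraries were again lowest, and the siNTC plus TVA libraries narrowly overlapped the siCreb1 plus TVA libraries. The TVA effect was 0.57 (SE 0.05, limma BH-adjusted p = 8.99e-05) in siNTC cells and 0.05 in siCreb1 cells. Pola1, which extends the primers, rose by 0.57 (limma BH-adjusted p = 0.000332) with TVA in siNTC cells.

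Pola2 changed little, with 25.1, 25.2 and 25.1 FPKM in siNTC, 26.2, 26.2 and 26.6 FPKM in siNTC plus TVA, 25.01, 24.7 and 24.6 FPKM in siCreb1 and 25.2, 25.4 and 25.3 FPKM in siCreb1 plus TVA libraries. The siNTC plus TVA libraries did lie above all others, but by little, and the log2 fold change was 0.06 (SE 0.02, limma BH-adjusted p = 0.0939). Pold2, the second subunit of the lagging strand polymerase delta, was at 21.8, 20.4 and 21.2 FPKM in siNTC, 25.4, 24.2 and 23.2 FPKM in siNTC plus TVA, 22.9, 24.7 and 23.4 FPKM in siCreb1 and 21.5, 21.3 and 21.2 FPKM in siCreb1 plus TVA libraries. Its siCreb1 plus TVA libraries lay within the siNTC range and below both other groups. Pold2 changed by 0.19 (limma BH-adjusted p = 0.0138) with TVA in siNTC cells and by −0.14 (limma BH-adjusted p = 0.221) in siCreb1 cells, the lowest value of the 57 genes there. In siCreb1 against siNTC cells with TVA the log2 fold change was −0.18 (limma BH-adjusted p = 0.0194).

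The clamp and clamp loader genes rose in 6 of 7 cases with TVA in siNTC cells (median 0.32), with Rfc3 the exception, and 0 were called in siCreb1 cells (median 0.06). Pcna, the sliding clamp and the most abundant RNA of the list per length, was at 102, 103 and 103 FPKM in siNTC, 138, 137 and 139.7 FPKM in siNTC plus TVA, 117, 118 and 115 FPKM in siCreb1 and 121, 119 and 120.4 FPKM in siCreb1 plus TVA libraries. The 4 groups did not overlap and followed the order siNTC, siCreb1, siCreb1 plus TVA and siNTC plus TVA. Pcna rose by 0.42 (SE 0.02, limma BH-adjusted p = 6.51e-07) with TVA in siNTC cells and by 0.18 (limma BH-adjusted p = 0.000263) with siCreb1 without TVA. With TVA it was lower in siCreb1 cells, with a log2 fold change of −0.20 (limma BH-adjusted p = 0.000329). By the main test it was the one clamp or loader gene with an interaction, −0.38 (limma BH-adjusted p = 9.21e-05). Limma-voom on the recovered reads also called the interaction of Dscc1 (BH-adjusted p = 0.0243) and Rfc1 (BH-adjusted p = 0.0479). The TVA effect of Pcna in siCreb1 cells was 0.04 (95% confidence interval 0.00 to 0.09).

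Dscc1, a subunit of the alternative clamp loader with CTF18, was at 0.837, 0.922 and 0.784 FPKM in siNTC, 1.64, 1.98 and 1.498 FPKM in siNTC plus TVA, 1.63, 1.53 and 1.31 FPKM in siCreb1 and 1.68, 1.56 and 1.51 FPKM in siCreb1 plus TVA libraries. The siNTC libraries were below all others, and the gene had 71 to 179 recovered reads per library. Its FPKM ratio with TVA in siNTC cells was 2.01, the largest of the 57 genes, and its log2 fold change 0.55 (SE 0.09, limma BH-adjusted p = 0.00361). The interaction of −0.49 (limma BH-adjusted p = 0.079) did not pass, though it did by limma-voom on the recovered reads (BH-adjusted p = 0.0243).

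Rfc4, a small subunit of the main clamp loader, was at 9.96, 10.2 and 9.47 FPKM in siNTC, 14.5, 13.7 and 13.98 FPKM in siNTC plus TVA, 11.1, 10.6 and 11.4 FPKM in siCreb1 and 11.9, 13.3 and 14.3 FPKM in siCreb1 plus TVA libraries. The siNTC plus TVA libraries overlapped the siCreb1 plus TVA libraries and no others. It rose by 0.47 (SE 0.06, limma BH-adjusted p = 0.00059) with TVA in siNTC cells. In siCreb1 cells its change of 0.23 (limma BH-adjusted p = 0.175) was the highest of the 57 genes, with a 95% confidence interval of 0.10 to 0.35. Rfc1, the large loader subunit, had the smallest change of these genes, 0.21 (limma BH-adjusted p = 0.00407) with TVA in siNTC cells, and libraries at 16.4, 15.96 and 16.8 FPKM in siNTC, 18.9, 19.7 and 18.7 FPKM in siNTC plus TVA, 18.6, 18.5 and 17.7 FPKM in siCreb1 and 18.2, 19.3 and 18.04 FPKM in siCreb1 plus TVA libraries. The siNTC libraries of Rfc1 were still below all others, and the siCreb1 plus TVA libraries overlapped both the siNTC plus TVA and the siCreb1 libraries.

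**Figure D2:**
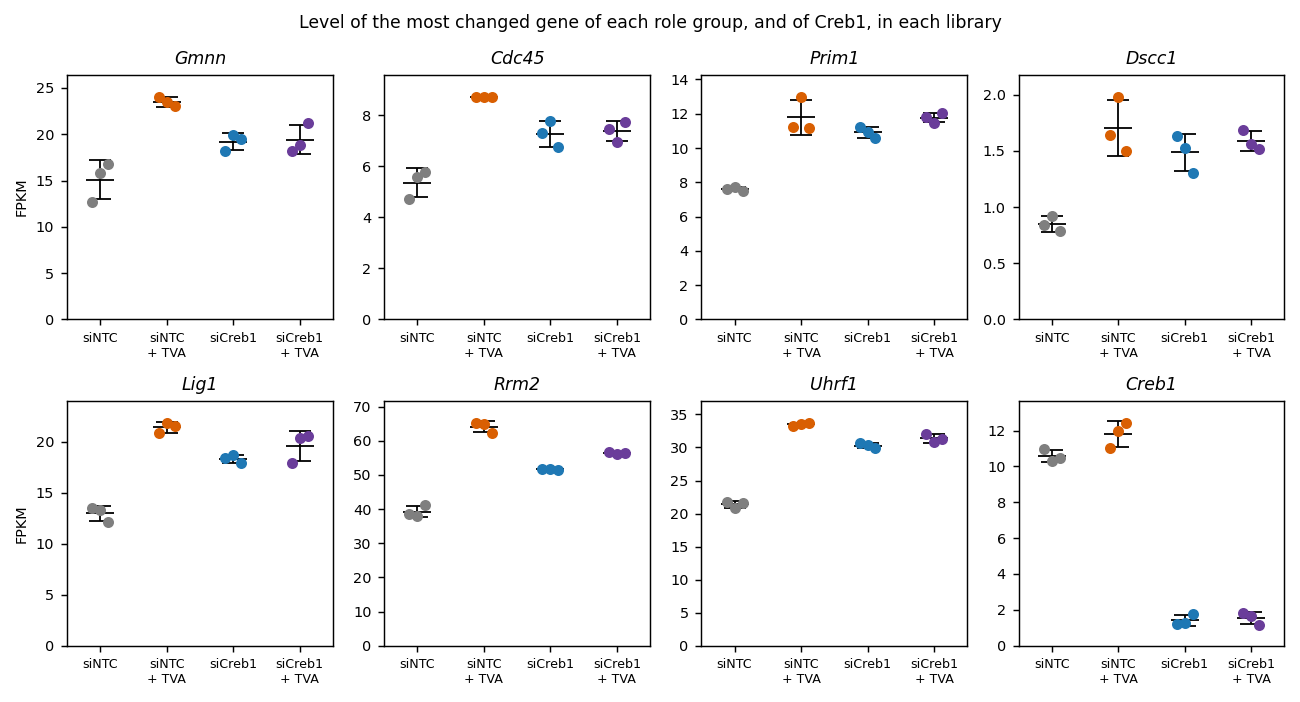
FPKM in each of the 12 libraries for the most changed gene of each role group with TVA in siNTC cells, and for Creb1. Points are libraries, long bars group means and whiskers SD (n = 3). For the 7 replication genes the siNTC libraries are the lowest, and the siNTC plus TVA mean is the highest or, for Prim1, level with siCreb1 plus TVA.

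Single-strand binding and Okazaki fragment genes changed least as a group, with 3 of 7 higher with TVA in siNTC cells (median 0.24) and 0 called in siCreb1 cells (median 0.04). Lig1, the ligase that joins Okazaki fragments, was far from the rest of its group, with 13.5, 13.3 and 12.1 FPKM in siNTC, 20.9, 21.8 and 21.5 FPKM in siNTC plus TVA, 18.4, 18.7 and 17.9 FPKM in siCreb1 and 17.9, 20.4 and 20.6 FPKM in siCreb1 plus TVA libraries. Its siNTC libraries were below all others, and its siNTC plus TVA libraries were above all others. Lig1 rose by 0.68 (SE 0.05, limma BH-adjusted p = 3.98e-05) with TVA in siNTC cells, a ratio of 1.65, and by 0.47 (limma BH-adjusted p = 0.000502) with siCreb1 without TVA. Its interaction was −0.59 (limma BH-adjusted p = 0.00334).

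Of the 3 subunits of RPA, the protein that coats single-stranded DNA, Rpa2 rose by 0.24 (limma BH-adjusted p = 0.0218) with TVA in siNTC cells, and the value for Rpa1 was 0.07. Rpa3 was at 16.9, 21.4 and 19.02 FPKM in siNTC, 20.9, 27.1 and 22.2 FPKM in siNTC plus TVA, 20.8, 19.3 and 21.6 FPKM in siCreb1 and 19.4, 20.4 and 18.7 FPKM in siCreb1 plus TVA libraries. The siCreb1 plus TVA libraries were all below the siNTC plus TVA libraries, and all other pairs of groups overlapped. Neither the value of 0.28 (limma BH-adjusted p = 0.123) with TVA in siNTC cells nor that of −0.24 (limma BH-adjusted p = 0.139) with siCreb1 in the presence of TVA passed. Rnaseh2a, the catalytic subunit of the RNase H2 that removes ribonucleotides from DNA, was at 10.3, 10.8 and 10.8 FPKM in siNTC, 10.6, 10.8 and 10.2 FPKM in siNTC plus TVA, 9.800, 10.3 and 10.5 FPKM in siCreb1 and 10.2, 10.6 and 10.2 FPKM in siCreb1 plus TVA libraries. All groups overlapped and the TVA effect in siNTC cells was −0.01 (95% confidence interval −0.09 to 0.07), the only negative value of the 57.

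The dNTP genes rose in 6 of 7 cases with TVA in siNTC cells, with a median of 0.48, and 0 were called in siCreb1 cells (median 0.08). Rrm2, the regulatory subunit of ribonucleotide reductase that cells make in S phase, was at 38.6, 37.9 and 41.04 FPKM in siNTC, 65.2, 65.00 and 62.2 FPKM in siNTC plus TVA, 51.6, 51.8 and 51.5 FPKM in siCreb1 and 56.8, 56.1 and 56.3 FPKM in siCreb1 plus TVA libraries. The 4 groups did not overlap and followed the order siNTC, siCreb1, siCreb1 plus TVA and siNTC plus TVA. Rrm2 rose by 0.70 (SE 0.03, limma BH-adjusted p = 6.51e-07) with TVA in siNTC cells, a ratio of 1.64, and by 0.39 (limma BH-adjusted p = 5.14e-05) with siCreb1 without TVA. Its TVA effect in siCreb1 cells was 0.12 (limma BH-adjusted p = 0.145), with a 95% confidence interval of 0.06 to 0.19, and the interaction was −0.57 (limma BH-adjusted p = 0.000122). The large subunit Rrm1 rose by 0.48 (limma BH-adjusted p = 4.67e-05) with TVA in siNTC cells.

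Tk1, the thymidine kinase of the salvage route, was at 5.68, 7.99 and 6.24 FPKM in siNTC, 10.9, 10.1 and 9.73 FPKM in siNTC plus TVA, 8.03, 8.92 and 8.69 FPKM in siCreb1 and 8.78, 8.86 and 9.502 FPKM in siCreb1 plus TVA libraries. Highest were the siNTC plus TVA libraries, and all siNTC libraries were lower than every other library. It rose by 0.57 (SE 0.09, limma BH-adjusted p = 0.00391) with TVA in siNTC cells, and its interaction of −0.49 (limma BH-adjusted p = 0.092) did not pass, though it did by limma-voom on the recovered reads (BH-adjusted p = 0.00222). Dut, the dUTPase that keeps uracil out of DNA, was at 24.4, 26.2 and 25.4 FPKM in siNTC, 36.4, 34.8 and 37.2 FPKM in siNTC plus TVA, 30.5, 28.4 and 28.9 FPKM in siCreb1 and 31.9, 32.98 and 33.1 FPKM in siCreb1 plus TVA libraries, with 4 groups that did not overlap. Dut rose by 0.49 (limma BH-adjusted p = 3.15e-05) and had an interaction of −0.34 (limma BH-adjusted p = 0.0079). Dtymk, the thymidylate kinase, was at 19.3, 21.4 and 19.6 FPKM in siNTC, 20.5, 26.2 and 23.7 FPKM in siNTC plus TVA, 25.01, 23.3 and 22.8 FPKM in siCreb1 and 24.4, 23.4 and 22.9 FPKM in siCreb1 plus TVA libraries, with overlap between siNTC plus TVA and every other group, and was not called in any comparison by the test used here. Its log2 change with TVA in siNTC cells was 0.21 (95% confidence interval 0.04 to 0.37).

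All 6 genes of chromatin assembly, methylation maintenance and fork protection rose with TVA in siNTC cells (median 0.48), 0 were called in siCreb1 cells (median 0.08) and 3 had an interaction. Uhrf1, the reader of hemimethylated DNA that recruits the maintenance methyltransferase, was at 21.8, 20.8 and 21.6 FPKM in siNTC, 33.3, 33.5 and 33.7 FPKM in siNTC plus TVA, 30.6, 30.3 and 29.9 FPKM in siCreb1 and 32.1, 30.8 and 31.2 FPKM in siCreb1 plus TVA libraries. Replicates were close, the siNTC libraries were far below and the siNTC plus TVA libraries above all others. It rose by 0.62 (SE 0.03, limma BH-adjusted p = 6.38e-07) with TVA in siNTC cells and by 0.48 (limma BH-adjusted p = 4.58e-06) with siCreb1 without TVA. The methyltransferase itself, Dnmt1, rose by 0.44 (limma BH-adjusted p = 4.67e-05) with TVA in siNTC cells.

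Chaf1a and Chaf1b encode the large and the middle subunit of CAF-1, which deposits histones on new DNA. Chaf1a was at 2.35, 2.63 and 2.39 FPKM in siNTC, 4.16, 4.53 and 3.72 FPKM in siNTC plus TVA, 3.37, 3.64 and 3.38 FPKM in siCreb1 and 4.04, 3.89 and 3.58 FPKM in siCreb1 plus TVA libraries. The siNTC libraries were lowest and the siNTC plus TVA libraries overlapped the siCreb1 plus TVA libraries. Chaf1b was at 4.87, 4.81 and 4.83 FPKM in siNTC, 6.31, 6.41 and 5.58 FPKM in siNTC plus TVA, 5.78, 5.64 and 5.67 FPKM in siCreb1 and 6.53, 6.35 and 6.702 FPKM in siCreb1 plus TVA libraries, with siCreb1 plus TVA the highest group and siNTC plus TVA overlapping both siCreb1 groups. With TVA in siNTC cells Chaf1a rose by 0.57 (SE 0.07, limma BH-adjusted p = 0.000497) and Chaf1b by 0.28 (SE 0.05, limma BH-adjusted p = 0.00464). In siCreb1 cells Chaf1b changed by 0.17 (95% confidence interval 0.06 to 0.27), without passing. Timeless and Tipin, which form the fork protection complex, rose by 0.49 (limma BH-adjusted p = 0.00122) and 0.47 (limma BH-adjusted p = 0.00526) with TVA in siNTC cells.

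**Figure D3:**
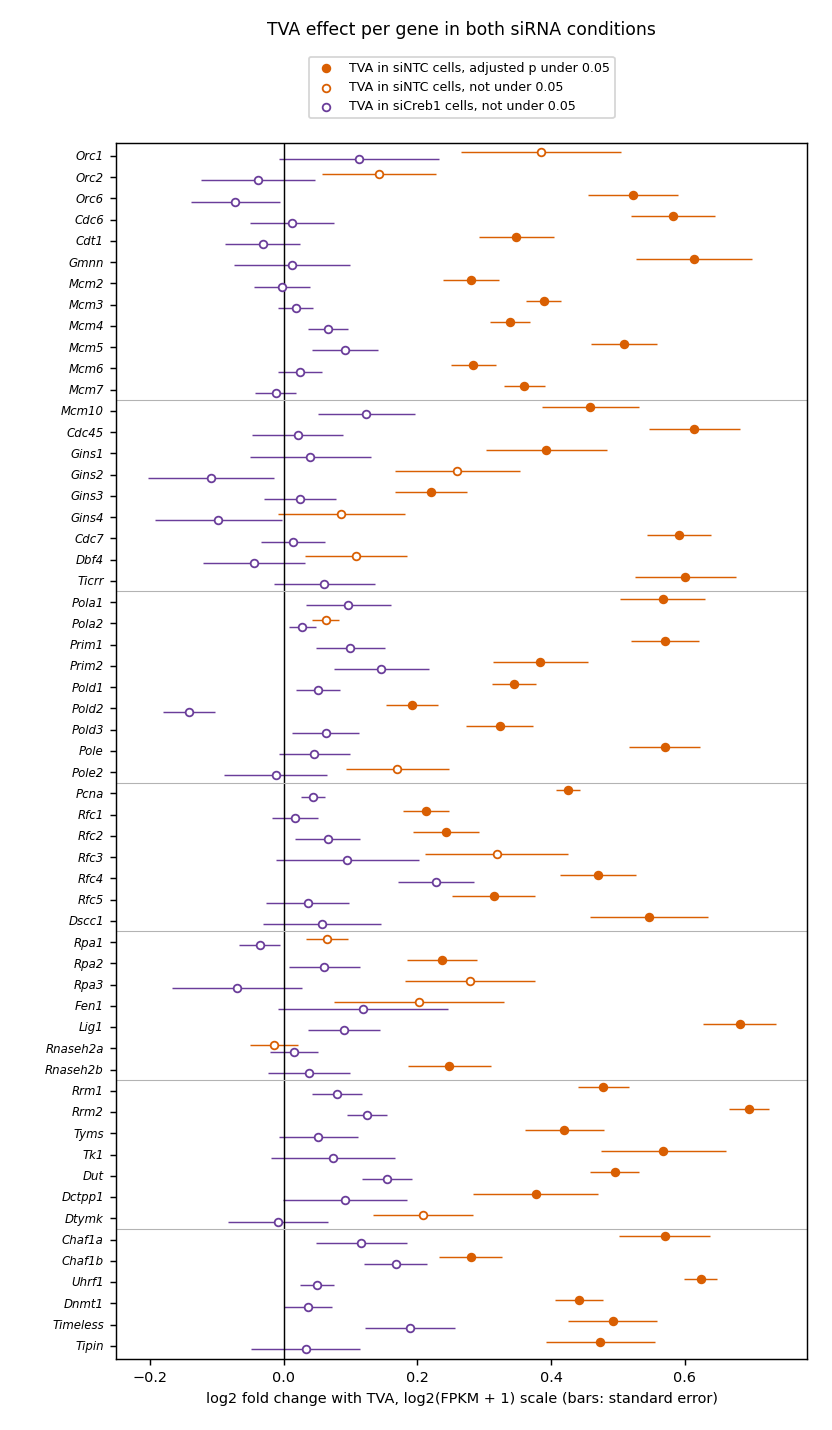
Log2 fold change with TVA on the log2(FPKM + 1) scale for each of the 57 genes, in siNTC cells (orange) and siCreb1 cells (purple), with bars for the standard error. Filled points had an adjusted p under 0.05. For 56 of the 57 genes, all but Rnaseh2a, the siCreb1 point lies to the left of the siNTC point.

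For TVA in siNTC cells, 50 of the 57 genes had all 3 TVA libraries above all 3 siNTC libraries and 0 had them all below, where 11.7% and 12.2% of all tested genes did. With 3 libraries on each side an exact permutation p is at least 0.1, so the calls rest on limma, which pools the spread over genes and groups. Of the 44 genes called, 37 were called whichever library was left out. Pold2 was not called without siNTC replicate 2 (limma BH-adjusted p = 0.0531) and Rfc2 not without siNTC plus TVA replicate 2 (limma BH-adjusted p = 0.0502). Gins1, Gins3, Rpa2, Rnaseh2b and Dctpp1, the phosphatase that clears non-standard dCTP, each lost the call in 5 to 7 of the 12 fits that left out 1 library, with limma BH-adjusted p up to 0.12.

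With TVA in siCreb1 cells the changes were small rather than opposite. Of the 57 log2 fold changes 44 were positive, from −0.14 for Pold2 to 0.23 for Rfc4. The TVA libraries did not overlap the siCreb1 libraries for 16 genes, 14 higher and 2 lower, where 8.09% and 9.01% of all tested genes were so. At an unadjusted p under 0.05 from limma 8 of the 57 genes passed, where 1106 of 11550 tested genes did in either direction. Of these 8, Mcm4, Pcna, Rfc4, Rrm2, Dut, Chaf1b and Timeless were higher and Pold2 lower, and none passed after adjustment in the main fit. Limma-voom on the recovered reads called 1 of the 57 genes, Rrm2, and leaving out siCreb1 plus TVA replicate 1 called Rfc4 (limma BH-adjusted p = 0.0471).

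The interaction was called for 27 genes: 10 licensing, 3 firing, 5 polymerase and primase, 1 clamp, 1 Okazaki fragment, 4 dNTP and 3 chromatin genes. At an unadjusted p under 0.05 from limma it was 45 of 57, all with the smaller TVA effect in siCreb1 cells, where 1657 of 11550 tested genes passed in either direction. Those called in every fit that left out 1 library were 20 of the 27, and Cdt1, Gmnn, Mcm2, Ticrr, Pola1, Tyms and Chaf1a each lost the call in 7 to 11 of the 12 such fits, with limma BH-adjusted p up to 0.111. Over the 12 fits the count ranged from 20 to 25, and limma-voom on the recovered reads called 33.

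In siCreb1 against siNTC cells without TVA the increases ran through all roles. Called higher were 9 of 12 licensing, 6 of 9 firing, 5 of 9 polymerase and primase, 3 of 7 clamp, 1 of 7 single-strand and Okazaki, 5 of 7 dNTP and 5 of 6 chromatin genes. The largest log2 fold changes were 0.57 for Cdc7, 0.48 for Uhrf1 and 0.47 for Ticrr. Of the 57 genes 42 had all siCreb1 libraries above all siNTC libraries and 1 had them all below, where 15.5% and 16% of all tested genes did. Of the 34 calls 25 held whichever library was left out. The other 9 were Gmnn, Mcm10, Gins1, Gins3, Pold2, Rfc1, Tk1, Chaf1b and Timeless, with Timeless not called without siCreb1 replicate 3 (limma BH-adjusted p = 0.0522) and each of the others losing the call in 2 to 8 of the 12 fits.

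In siCreb1 against siNTC cells with TVA the differences were smaller and went the other way. The 9 genes called lower were Cdt1, Mcm3, Mcm4, Mcm7, Pold2, Pcna, Rrm2, Dut and Uhrf1, with log2 fold changes from −0.31 for Cdt1 to −0.09 for Uhrf1. For 27 of the 57 genes all siCreb1 plus TVA libraries were below all siNTC plus TVA libraries and for 0 above, where 17.6% and 14.3% of all tested genes were so. The count of 9 depended on the scaling: it was 2 (Cdt1 and Pcna) with FPKM rescaled to TPM and 4 with quantile normalization. The library size implied by the deposited FPKM was 0.987 to 0.999 times the recovered reads in siNTC and 1.013 to 1.017 times in siCreb1 plus TVA libraries, and its part in the result was not tested. The count was 4 when any 1 of the siNTC plus TVA libraries was left out, 3 when any 1 of the siCreb1 plus TVA libraries was left out and 5 without siCreb1 replicate 3, and Cdt1, Pcna and Rrm2 were called in all fits that left out 1 library. Among all tested genes the share of calls that were higher was 45.7%, against 83.8% with TPM and 64.0% with quantile normalization. In siCreb1 without TVA it was 47.5% against 75.4% with TPM, and for TVA in siNTC cells 60.9% against 72.3%.

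The order of the group means was siNTC, siCreb1, siCreb1 plus TVA and siNTC plus TVA, from low to high, for 38 of the 57 genes. Another 9 genes had the siCreb1 groups swapped: Orc2, Orc6, Cdt1, Mcm2, Mcm7, Gins2, Pold2, Pole2 and Rpa3. The siNTC mean was the lowest for 53 genes, and the exceptions were Pola2, Rnaseh2a, Gins4 and Rpa1. The siNTC plus TVA mean was the highest for 50 genes. It was exceeded by siCreb1 plus TVA for Gins1, Gins3, Chaf1b and Timeless, by siCreb1 for Dbf4 and Dtymk, and by siNTC for Rnaseh2a. The siCreb1 groups, neighbours in this order, were separated in the test for 0 of the 57 genes.

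**Figure D4:**
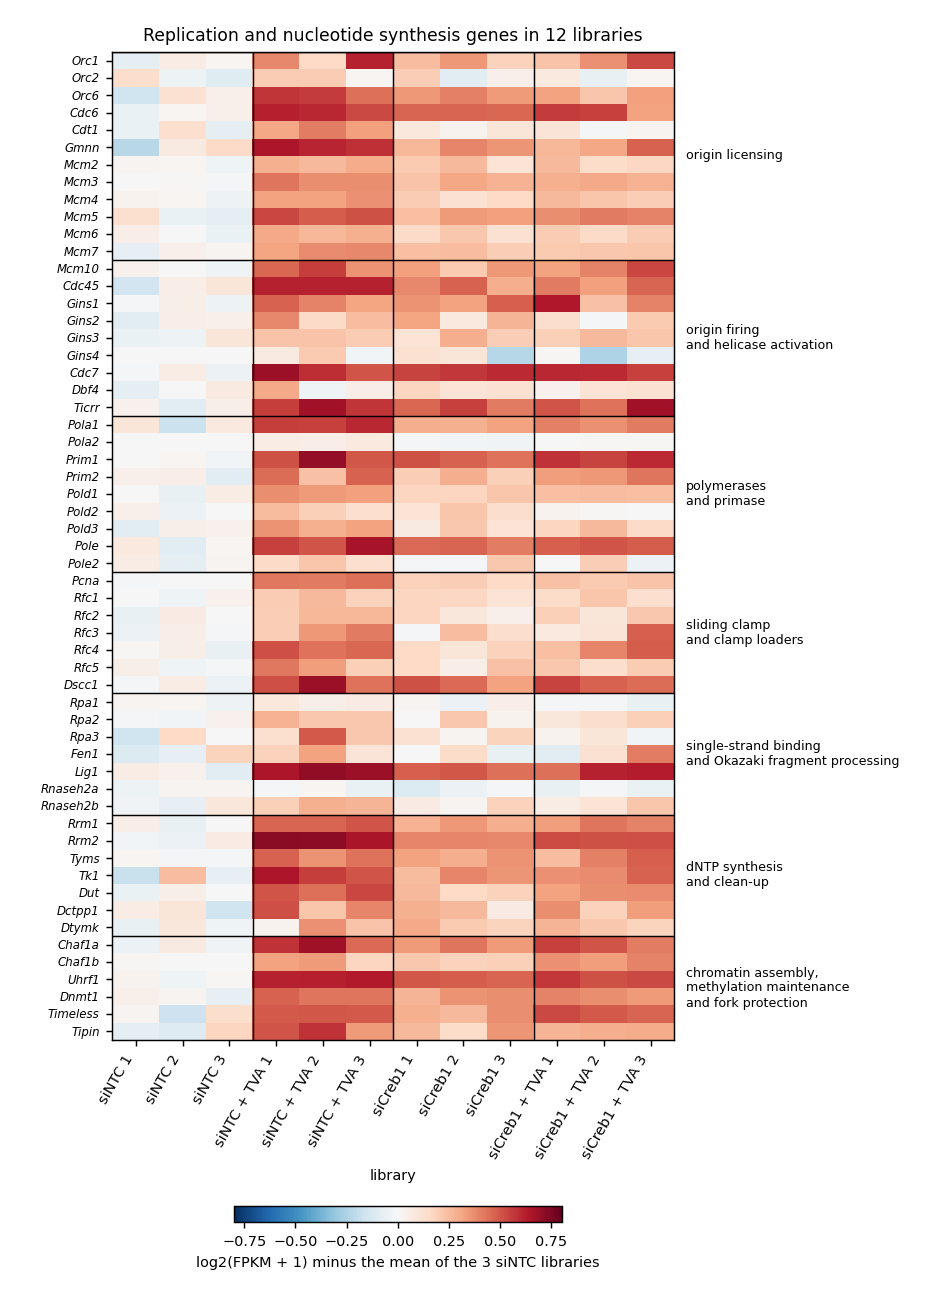
Each cell is the log2(FPKM + 1) value of a gene in a library minus the mean of the 3 siNTC libraries, with genes in rows by role group and libraries in columns. The siNTC plus TVA block is the darkest red in most rows, the siCreb1 blocks are paler, and Rnaseh2a and Pola2 stay near white throughout.

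The genes that stayed below the threshold in all 5 comparisons were 13 in number: Orc1, Orc2, Gins2, Gins4, Dbf4, Pola2, Pole2, Rfc3, Rpa1, Rpa3, Fen1, Rnaseh2a and Dtymk. They were not only low genes. Orc1 had 64 to 148 and Fen1, the flap endonuclease of Okazaki fragments, 82 to 166 recovered reads per library. Rpa1, Pola2 and Gins4 had means over all libraries of 37.2, 25.4 and 26.5 FPKM. Orc1, with 0.921, 1.11 and 1.04 FPKM in siNTC, 1.63, 1.26 and 2.09 FPKM in siNTC plus TVA, 1.402, 1.57 and 1.300 FPKM in siCreb1 and 1.37, 1.61 and 1.91 FPKM in siCreb1 plus TVA libraries, had siNTC libraries below all others and a log2 fold change of 0.39 (limma BH-adjusted p = 0.0864) with TVA in siNTC cells. Of the 13 genes 4 were called in some alternative. Limma-voom on the recovered reads called Orc1 (BH-adjusted p = 0.0376), Rfc3 (BH-adjusted p = 0.0389) and Dtymk (BH-adjusted p = 0.0365) with TVA in siNTC cells, and limma over all genes above 0 called Pola2 (BH-adjusted p = 0.0478). Dtymk was also called for siCreb1 without TVA by limma-voom (BH-adjusted p = 0.00754) and with FPKM rescaled to TPM (limma BH-adjusted p = 0.0304). Leaving out 1 library called Orc1 (without siNTC plus TVA replicate 2), Rfc3 (without siCreb1 plus TVA replicate 3) and Dtymk (without siNTC plus TVA replicate 1, or for siCreb1 without TVA also replicate 2). At the other end 8 genes were called in 4 of the 5 comparisons: Mcm3, Mcm4, Mcm7, Pold2, Pcna, Rrm2, Dut and Uhrf1.

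Some values carry a counting limit. Of the 57 genes 23 overlap a gene on the opposite strand, and whether the counting used strand is not given in the sources used here. Rfc4, with a mean of 384.5 recovered reads, overlaps Eif4a2, with 6776 reads, over 194 bases. Orc6 overlaps Vps35, Cdc45 overlaps Ufd1, Chaf1a overlaps Ubxn6, Gins2 overlaps Gse1, Fen1 overlaps Tmem258 and Rnaseh2a overlaps Prdx2, so their values are uncertain where reads of the neighbour were counted with them. Pcna has a pseudogene copy, Pcna-ps2, with a mean of 1.12 FPKM, and reads could be split between them.

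Other lists, also chosen with earlier results of these data known, were used as a backdrop. Of 26 further replication factors 12 rose with TVA in siNTC cells (median log2 fold change 0.17), among them Clspn (0.76), the checkpoint mediator claspin, Top2a (0.65), topoisomerase II alpha, and Asf1b (0.60), a histone chaperone. In siCreb1 cells 1 of the 26 rose with TVA, Asf1b, by 0.18 (limma BH-adjusted p = 0.0424). Of 28 nucleotide, folate and salvage enzymes outside the list, 9 rose and 1 fell with TVA in siNTC cells (median 0.10), and 0 were called in siCreb1 cells. With TVA, Pfas, an enzyme of purine synthesis, was higher in siCreb1 than in siNTC cells by 0.22 while 3 others of these 28 were lower.

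All 29 genes of the G2/M list, which act after replication, rose with TVA in siNTC cells (median 0.44), led by Bub1 (0.68) and Kif11 (0.64), a checkpoint kinase and a spindle motor. In siCreb1 cells 0 of the 29 were called (median 0.02), and 25 had an interaction. Without TVA 24 were higher in siCreb1 than in siNTC cells, with Mki67, the proliferation marker, at 0.43. With TVA 11 were lower, led by Cdc20 (−0.34) and Cdk1 (−0.27), the activator of mitotic exit and the mitotic kinase. The medians of the G2/M genes had the same sign as those of the replication genes in all 5 comparisons, and no test compared the lists.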

How the data were processed

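RNA-seq of 12 libraries (siNTC or siCreb1, DMSO or TVA, 3 libraries each) was used. The authors deposited FPKM values per gene and library; per the labels the build was GRCm38 (mm10), and the aligner, the counter and the use of strand are not given in the sources used here. FPKM times gene length fell within 0.01 of a whole multiple of 1 step for at least 99.995% of genes above 0, which gave the reads back. The filter kept 11550 genes whose FPKM averaged 1 or more, and limma 3.58.1 in R 4.3.3 was fitted to log2(FPKM + 1) (1 fit, 4 groups, mean-variance trend), and p-values were Benjamini-Hochberg adjusted over all of them, with a threshold of 0.05. The pseudocount was 1. The fitting code was run on simulated data with changes of known size in the siNTC plus TVA group only. That run checks the code and says nothing of the calls made here.

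Members and lists were chosen with earlier results of these data known. Named in full were, per role group, the 2 largest and the smallest log2 changes with TVA in siNTC cells, and members with further calls. For Orc2, the smallest change of the licensing genes, only the fold change is given. From the other lists at most 5 called genes per comparison were named. Other values named were chosen after they were seen. Alternatives were a pseudocount of 0.1, other filters, quantile normalization, TPM, a replicate block, no trend, limma-voom on recovered reads, fits of only the libraries compared, and leaving out each library. Promoters are from RefSeq (GRCm38.p6), and figures were drawn with matplotlib 3.10.9. Over genes with at least 100 mean reads, the variance between replicates averaged 3.91 to 6.35 times that of counting error alone (12 pairs). This is an average over all such genes and was not computed for the members alone, so depth may limit precision for some of them.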

Additional observations from a re-analysis of the deposited data

Results flagged for a closer look

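The TVA effect differed between siNTC and siCreb1 cells by a test of the difference itself (limma's interaction term, Benjamini-Hochberg adjusted p under 0.05) for 27 of the 57 replication genes. The values are the log2 fold change with TVA in siCreb1 cells minus that in siNTC cells, so a negative value is a smaller TVA effect after the knockdown. Among the licensing genes it was −0.59 for Orc6, −0.57 for Cdc6, −0.38 for Cdt1, −0.60 for Gmnn, −0.28 for Mcm2, −0.37 for Mcm3, −0.27 for Mcm4, −0.42 for Mcm5, −0.26 for Mcm6 and −0.37 for Mcm7. Among the firing factors it was −0.59 for Cdc45, −0.58 for Cdc7 and −0.54 for Ticrr. Among the polymerase and primase genes it was −0.47 for Pola1, −0.47 for Prim1, −0.29 for Pold1, −0.33 for Pold2 and −0.52 for Pole. Among the clamp and loader genes it was −0.38 for Pcna. Among the Okazaki fragment genes it was −0.59 for Lig1. Among the dNTP genes it was −0.40 for Rrm1, −0.57 for Rrm2, −0.37 for Tyms and −0.34 for Dut. Among the chromatin genes it was −0.46 for Chaf1a, −0.57 for Uhrf1 and −0.41 for Dnmt1. All 27 were negative, while the same fit called 259 of all tested genes, 206 of them negative (1.78% of the genes tested).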

How the results depend on the processing

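The members called higher with TVA in siNTC cells ranged from 39 to 44 when each library was left out in turn, those called higher with siCreb1 without TVA from 26 to 35, those with an interaction from 20 to 25, and those called lower with siCreb1 in the presence of TVA from 3 to 13. With TVA in siCreb1 cells the range was 0 to 1, and limma-voom on recovered reads also gave 1 higher member. For the interaction limma-voom gave 33 members. Of the calls, 32 of 44, 22 of 34, 2 of 9 and 17 of 27 (TVA in siNTC, siCreb1 without TVA, siCreb1 with TVA, interaction) held under each of the other alternatives in which the gene was tested. With a mean FPKM of at least 5 only 37, 28, 9 and 24 of these genes were tested, and the fit of only the libraries compared has no separate value for the interaction, which uses all 12. Members lower with siCreb1 in the presence of TVA numbered 9, and 5 with all genes above 0, 4 with quantile normalization, 2 with TPM, 5 with the replicate block and 5 without the mean-variance trend. All genes called with TVA in siNTC cells numbered 852, and 563 with all genes above 0, 556 with TPM, 368 in a fit of only the libraries compared and 558 to 767 with a library left out (558 without siNTC plus TVA replicate 2). For TVA in siCreb1 cells 62 genes became 37 with TPM, 157 with limma-voom, 39 in a fit of only the libraries compared and 30 to 67 with a library left out. For siCreb1 without TVA 1586 became 992 with all genes above 0, 817 in a fit of only the libraries compared and 1020 to 1532 with a library left out. For siCreb1 with TVA 1172 became 683 with all genes above 0, 740 with TPM and 599 to 1245 with a library left out. For the interaction 259 became 152 with TPM, 446 with limma-voom and 168 to 237 with a library left out. The cause of these changes was not tested, except that a fit of fewer libraries estimates the spread from fewer samples. The Creb1 difference ranged from −9.90 to −9.47 FPKM. The TVA effect of Rnaseh2a in siNTC cells ranged from −0.035 to 0.005 with a library left out, turning positive without siNTC plus TVA replicate 3. Of the small, uncalled log2 effects of TVA in siCreb1 cells, that of Cdc6 ranged from −0.028 to 0.091 with a library left out (negative without siCreb1 plus TVA replicate 1 or 2, the latter −0.023), that of Mcm3 from −0.004 (without siCreb1 replicate 1) to 0.036, and that of Cdc45 from −0.025 (without siCreb1 replicate 3, and −0.01 without siCreb1 plus TVA replicate 3) to 0.065.

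Replicate numbers are shared by the groups in the labels. Libraries with the same number deviated from their groups with correlations of −0.059 to 0.06 over 18 pairs, and 3 of 12 libraries correlated best with their own number, so the numbers were not taken as pairing the libraries. With the replicate block the members called were 44, 0, 34, 5 and 23 for TVA in siNTC, TVA in siCreb1, siCreb1 without TVA, siCreb1 with TVA and the interaction, and all genes called were 687, 34, 1385, 973 and 195.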
